A study of Caenorhabditis elegans with 10 samples.

Results

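The C. elegans homeobox genes examined here are the 68 rows, of 20222 genes in the count tables, whose name is ceh followed by a number, without ceh-16, together with the Hox genes lin-39, mab-5, egl-5, nob-1 and php-3. RNA was sequenced from dauers, the arrested larval stage, of 2 genotypes with 5 libraries each. The first, called daf-2 below, carries the e1370 allele of daf-2, the gene of the insulin-like receptor. The second, chd-7;daf-2, carries the same daf-2 allele and also gk290, an allele of chd-7, which encodes a chromatin-remodelling ATPase, and is called the double mutant below. All animals, the controls included, therefore carry the daf-2 mutation, and they became dauers at 25°C, where they stayed for 10 days from synchronized eggs. Whole animals were used, so a lower level in 1 cell type and fewer cells of that type cannot be told apart. The labels do not say whether libraries came from separate cultures, so p-values reflect library-to-library spread alone, some of which may be technical.

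Homeobox genes encode transcription factors that bind DNA through a helix-turn-helix fold, the homeodomain. Hox genes give cells their position along the body axis, and PBC proteins such as CEH-20 bind DNA beside them as cofactors. Most of the other classes (NK, LIM, POU, paired-like, sine oculis, CUT) are known in C. elegans chiefly for setting the identity of single neurons, and some act in pharynx, epidermis or gonad.

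Each library held between 7331885 and 14997608 reads in genes, of which the homeobox genes took 0.0876% to 0.103%. No 2 libraries agreed within sampling noise, and the closest pair, daf-2 replicates 4 and 5, had a chi-square of 3.83 per degree of freedom. Levels are given as CPM, reads per 1000000 after TMM scaling. Reads on chd-7 itself gave no check of the labels (207 to 263 CPM in daf-2, 234 to 283 CPM in the double mutant), since a gene-wide total is blind to which part gk290 removes. All 8 dauer marker genes were read in every library, and 1 of them, cut-1, was called lower in the double mutant. Summed germline markers lay between 388 and 891 CPM in daf-2. In the double mutant they lay between 89.6 and 418 CPM, with the highest value in replicate 4. Of 17 tested markers 14 were called lower, where 18.3% of all tested genes were. The sum of the 6 vit yolk genes was 107 and 82.8 CPM in daf-2 replicates 2 and 3 and 17.4 CPM in double mutant replicate 4, against 2.02 to 6.57 CPM in the other 7 libraries, and results were also computed without these 3 libraries. Summed body wall muscle markers were higher in the double mutant, at 5318 to 7358 CPM against 1601 to 2941 CPM. Summed neuron markers overlapped, with 3825 to 5429 CPM for daf-2 and 4209 to 5115 CPM for the double mutant.

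Most homeobox genes were detected in dauers, and most in both genotypes, as were most of all genes counted. A gene was counted as detected in a genotype with at least 3 reads in at least 3 of its 5 libraries. By this rule 50 of 68 were detected in daf-2 and 49 in the double mutant, 46 of them in both. Over all 20222 genes, 14202 were detected in daf-2 and 14217 in the double mutant, 13652 of them in both. Single libraries had between 45 and 53 members with at least 3 reads. The limit that a count of 0 allows, 3 reads, corresponded to 0.196 to 0.393 CPM per library and covers counting error only.

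All 6 Hox genes, both POU genes and the single LIM gene were detected in both genotypes, as were all 3 sine oculis genes and 6 of 7 CUT and ONECUT genes. In the NK and related class 12 of 18 were detected in both genotypes, and in the paired-like class 2 of 8. Another 20 genes carry a ceh name but were put in no class here, and 12 of these were detected in both genotypes.

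No read was counted in any library for 5 of 68 members, namely ceh-5, ceh-10, ceh-51, ceh-74 and ceh-84. The gene ceh-10 is known for the fate of the AIY interneuron and ceh-51 for early embryonic mesoderm. Such a listing need not mean absent RNA, because unc-18, which neurons use for transmitter release, was listed at 0 in all libraries too. A further 10 genes had reads but were detected in neither genotype, namely ceh-7, ceh-28, ceh-36, ceh-45, ceh-53, ceh-75, ceh-81, ceh-82, ceh-87 and ceh-90. Among them ceh-36, which acts in the AWC and ASE sensory neurons, had 1 read over the daf-2 libraries and 7 over the double mutant libraries.

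**Figure D1:**
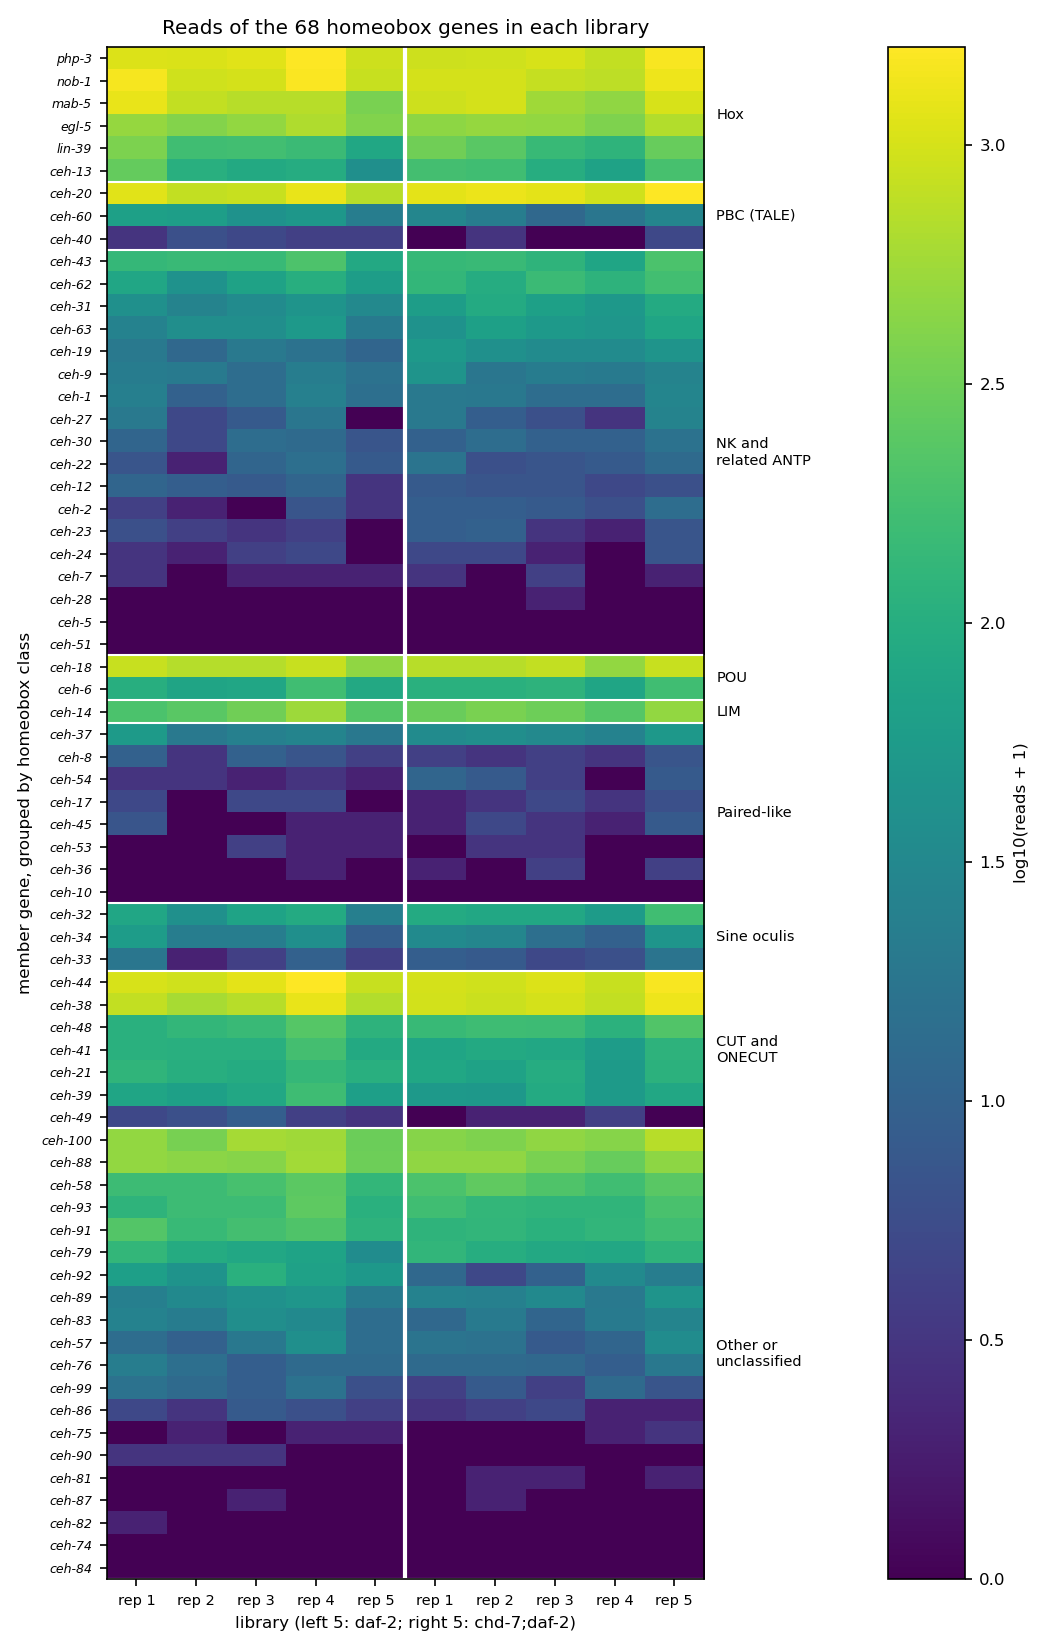
Colour gives log10(reads + 1) of each of the 68 homeobox genes (rows, grouped by class) in the 10 libraries (columns, daf-2 left of the white line and the double mutant, chd-7;daf-2, right of it), with no scaling for depth. The brightest rows are the Hox genes php-3, nob-1 and mab-5 with ceh-20, ceh-44, ceh-38 and ceh-18, while 5 genes are at 0 in every column.

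Detection differed between the genotypes for 7 genes, all of them with at most 13 reads in any library. The gene ceh-2, which acts in pharyngeal neurons, had 3, 1, 0, 6 and 2 reads in daf-2 replicates 1 to 5 and 8, 8, 7, 5 and 13 reads in the double mutant. Scaled for depth, its libraries did not overlap, at 0 to 0.415 CPM in daf-2 and 0.545 to 0.851 CPM in the double mutant. It was left out by the filter on low counts. In a fit without that filter its log2 fold change was 1.66 ± 0.53 (SE, adjusted p = 0.0326). Of the 25 members with reads but under the filter, it was the only one called in that fit. The paired-like gene ceh-54 had 2, 2, 1, 2 and 1 reads in daf-2 and 10, 7, 3, 0 and 7 in the double mutant, so that replicate 4 of the double mutant went with the daf-2 libraries. The gene ceh-24, which acts in pharyngeal and vulval muscle, had 10 reads in all in daf-2 and 15 in the double mutant. Neither ceh-54 nor ceh-24 was called without the filter (adjusted p = 0.0918 and 0.651).

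Detected in daf-2 alone were ceh-17, ceh-40, ceh-49 and ceh-86. The ONECUT gene ceh-49 had 4, 5, 8, 3 and 2 reads in daf-2 and 0, 1, 1, 3 and 0 in the double mutant. The PBC gene ceh-40 had 2, 5, 4, 3 and 3 reads in daf-2 and 0, 2, 0, 0 and 4 in the double mutant. In ceh-17, which acts in the ALA and SIA neurons, 12 and 14 reads were seen over the 5 libraries, and ceh-86 had 21 and 11. Libraries of the genotypes overlapped in CPM for all 4 genes, and none was called without the filter (adjusted p = 0.0562 for ceh-49, 0.150 for ceh-40, 0.226 for ceh-86 and 0.886 for ceh-17).

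Another 8 of the 68 genes were detected in both genotypes but were too low to be tested, namely ceh-8, ceh-12, ceh-22, ceh-23, ceh-27, ceh-30, ceh-33 and ceh-99. Their mean levels lay between 0.222 CPM (ceh-23 in daf-2) and 0.976 CPM (ceh-99 in daf-2). The pharyngeal muscle factor gene ceh-22 was at 0.682 ± 0.374 CPM (SD, n = 5) in daf-2 and 0.793 ± 0.369 CPM in the double mutant. Of its 2369 exonic bases, 555 overlap the non-coding gene F29F11.19 on the other strand, so its level is uncertain.

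Levels were compared between genes as CPM per kilobase of annotated exon, using both genotypes together. The order was php-3 (76.9), ceh-20 (76.6), mab-5 (62.7), nob-1 (44.5), egl-5 (28.2), ceh-38 (28.1) and ceh-18 (25.2), followed by ceh-88 at 15.3. Of the 2491 exonic bases of ceh-88, 809 overlap C49C3.6 on the same strand, so its level is uncertain. The Hox genes php-3, mab-5 and nob-1 and the Hox cofactor gene ceh-20 were the 4 highest in each genotype, and the next was egl-5 in daf-2 but ceh-38 in the double mutant. The order of the top 2 also differed. In daf-2, php-3 stood at 83.4 ± 7.63 CPM per kilobase (SD, n = 5) and ceh-20 at 68.5 ± 6.58, whereas in the double mutant php-3 stood at 70.5 ± 5.68 and ceh-20 at 84.8 ± 4.73. Next to each other in this order, egl-5, ceh-38 and ceh-18 stood at 28.6 ± 2.61, 26.1 ± 4.68 and 25.8 ± 2.14 CPM per kilobase in daf-2, where the differences between their means were no larger than about these SDs. In the double mutant the first 2 changed places, with ceh-38 at 30.1 ± 1.80, egl-5 at 27.7 ± 1.66 and ceh-18 at 24.7 ± 3.62, and the gap between ceh-38 and ceh-18 was larger than either SD. The Hox genes lin-39 (12.99) and ceh-13 (12.4) were lower. The CUT gene ceh-44 was read at 102 ± 11.3 CPM in daf-2, but no exon length could be matched to it. The Ensembl annotation names the locus cone-1, and how the counting split reads between ceh-44 and cone-1 products is not known, so the level of ceh-44 is uncertain.

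Of the 68 genes, 38 passed the filter on low counts and were tested between the genotypes. In the double mutant 5 rose and 6 fell at an adjusted p under 0.05 (edgeR's quasi-likelihood test, adjusted over all 12499 genes tested). These 11 of 38 (28.9%) stand beside 36.2% called over all tested genes, 17.9% higher and 18.3% lower. Leaving out 1 library at a time gave 7 to 12 called members, the fewest (3 higher and 4 lower) without double mutant replicate 2, and 3 higher and 6 lower were called without the 3 libraries that stood apart. Of the called members, ceh-19, ceh-60 and ceh-92 changed by 2-fold or more. These are 3 of 38 tested members, beside 1837 of all 12499 tested genes called with such a change. The median log2 fold change of the 38 was -0.04, beside -0.03 over all tested genes. The libraries of the genotypes did not overlap for 9 of the 38 (23.7%), beside 22.7% of all tested genes. Of the 38, 34 were over the filter's limit of 0.897 CPM in all 10 libraries. None was over it in all 5 libraries of 1 genotype and in at most 1 of the other. The gene ceh-92 was over it in 5 daf-2 libraries and 3 double mutant libraries.

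**Figure D2:**
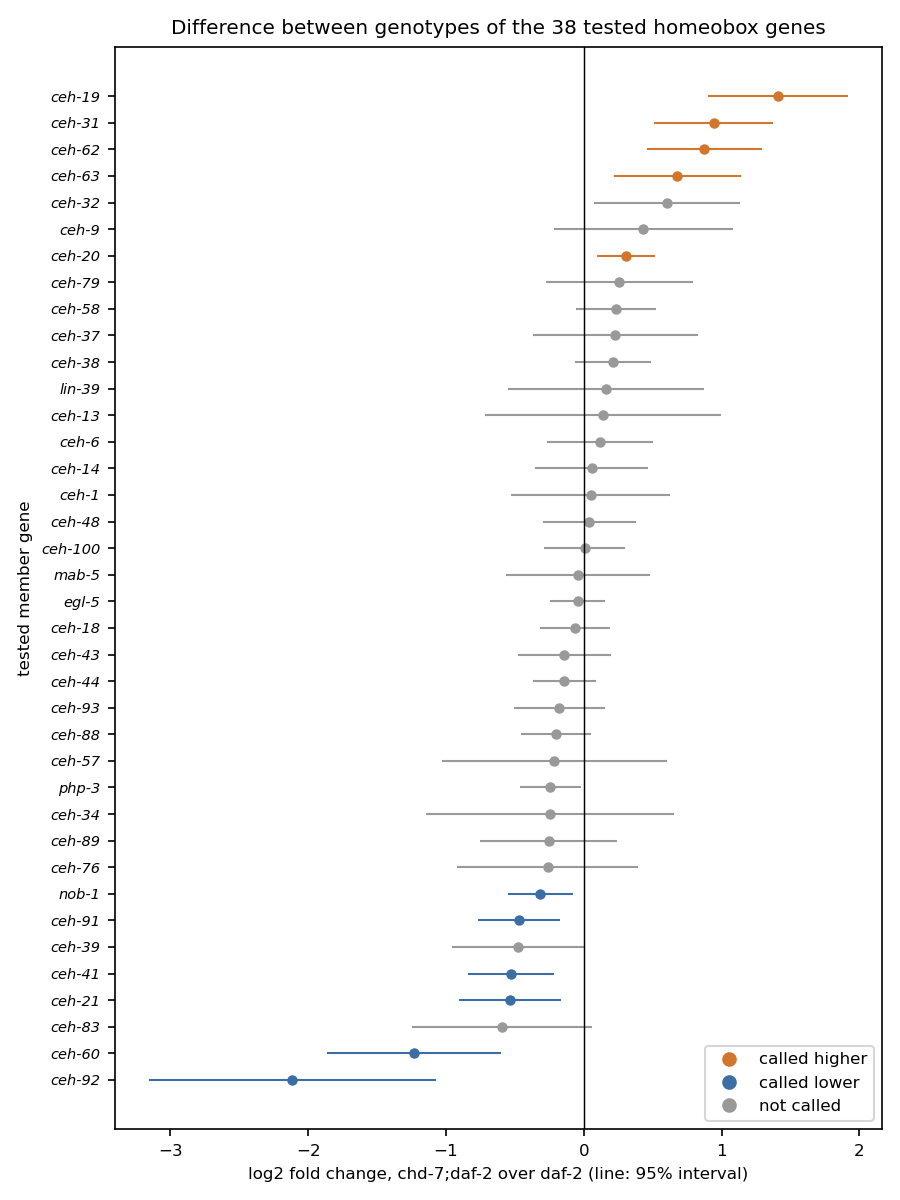
Log2 fold change (x axis, double mutant over daf-2) with its 95% interval for the 38 tested homeobox genes (y axis), coloured by the call at an adjusted p under 0.05. The 5 genes called higher reach up to 1.41 (ceh-19) and the 6 called lower down to -2.11 (ceh-92), while the 27 others lie between -0.59 and 0.60.

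Among the Hox genes, nob-1 fell and the other 5 were not called, so 16.7% were called beside 36.2% of all tested genes. Both genes of the posterior pair nob-1 and php-3, related to Abdominal-B of the fly and needed for posterior embryonic patterning, had lower mean levels in the double mutant. They are neighbours on chromosome III, at 12077793 to 12084316 (nob-1) and 12074218 to 12077556 (php-3) on the minus strand of WBcel235, 236 bases apart. In daf-2 replicates 1 to 5, nob-1 was read at 124, 91.7, 92.3, 107 and 114 CPM, and in the double mutant at 86.5, 91.3, 77.8, 83.6 and 87.0 CPM. The groups did not overlap, although replicate 2 of both genotypes was almost at the same level. The log2 fold change of nob-1 was -0.31 ± 0.11 (SE), with an adjusted p of 0.0373. Without the filter that call was lost (0.0566), as it was without double mutant replicate 1, 2, 3 or 4 or daf-2 replicate 1, 4 or 5 (0.0514 to 0.0869).

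The neighbour php-3 was read at 92.1, 103, 107, 109 and 119 CPM in daf-2 and at 80.2, 85.2, 94.1, 89.3 and 98.5 CPM in the double mutant. The groups overlapped, since daf-2 replicate 1 lay below double mutant replicates 3 and 5. At -0.24 ± 0.10, its log2 fold change was not called (adjusted p = 0.0706). A call was made with DESeq2 (0.0494), limma-voom (0.0324), upper-quartile scaling (0.0450) and the replicate number as a factor (0.0440), and without daf-2 replicate 1 (0.0345).

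The third gene related to Abdominal-B, egl-5, which acts in the tail and in the HSN motor neurons, lies on chromosome III from 7814374 to 7817141 on the plus strand. Its levels were 42.7, 40.2, 44.7, 46.2 and 51.05 CPM in daf-2 and 40.1, 45.4, 45.5, 41.4 and 45.4 CPM in the double mutant, fully overlapping. With a log2 fold change of -0.04 ± 0.09 and a 95% interval from -0.24 to 0.15, egl-5 had the narrowest interval of the 6 Hox genes.

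The genes lin-39, mab-5 and ceh-13 act at middle, posterior and anterior positions of the body. In larvae lin-39 acts in the vulval precursor cells, and lin-39 and mab-5 steer the migration of Q neuroblast descendants. The mid-body gene lin-39, on chromosome III from 7528641 to 7536632, was read at 32.2, 16.1, 15.5, 10.6 and 10.47 CPM in daf-2 and at 27.99, 21.8, 13.2, 13.2 and 18.9 CPM in the double mutant. Its neighbour ceh-13, the labial counterpart 19027 bases away, was at 24.2, 10.3, 8.06, 6.64 and 5.105 CPM in daf-2 and 15.6, 15.2, 9.20, 7.63 and 12.2 CPM in the double mutant. The Antennapedia-class gene mab-5, on chromosome III from 7776835 to 7783454, was at 106, 80.2, 66.3, 50.04 and 48.04 CPM in daf-2 and 79.3, 91.1, 51.6, 51.5 and 67.6 CPM in the double mutant. For all 3 genes the genotypes overlapped over most of their range. The log2 fold changes were 0.16 ± 0.32 for lin-39, 0.14 ± 0.39 for ceh-13 and -0.04 ± 0.24 for mab-5 (adjusted p = 0.714, 0.803 and 0.903). Their 95% intervals, -0.54 to 0.87, -0.71 to 0.99 and -0.56 to 0.47, leave room for changes larger than that of nob-1.

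**Figure D3:**
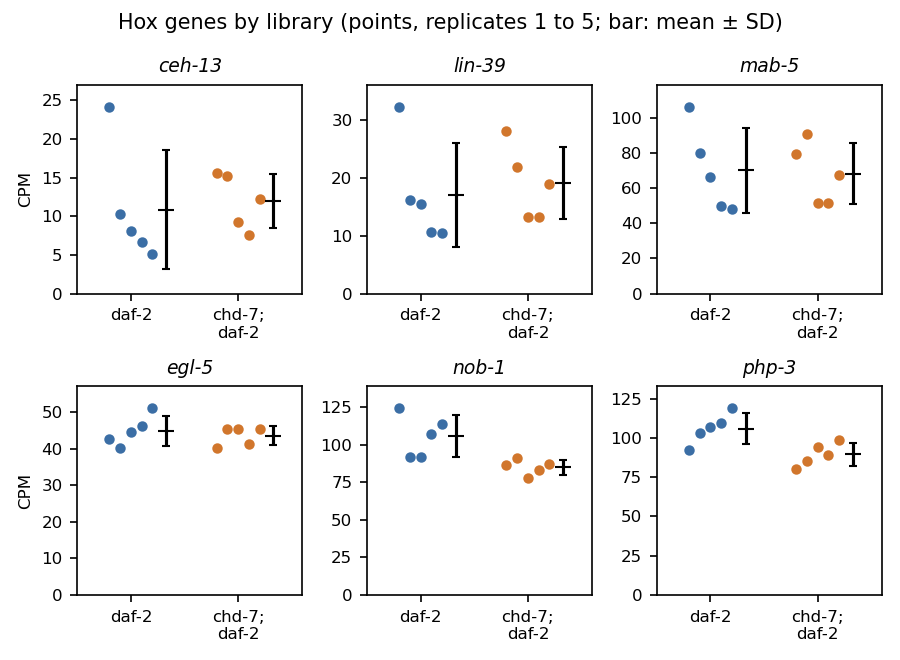
CPM (y axis, from 0) of the 6 Hox genes in the 5 daf-2 (blue) and 5 double mutant (orange) libraries, with the mean and SD in black beside them. The genotypes overlap for every gene but nob-1, and ceh-13, lin-39 and mab-5 spread widely within both genotypes.

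Within both genotypes, the levels of ceh-13, lin-39 and mab-5 varied more than those of egl-5, nob-1 and php-3. The coefficient of variation in daf-2 was 70.8% for ceh-13, 52.4% for lin-39 and 34.3% for mab-5, but 9.11% for egl-5, 13.3% for nob-1 and 9.15% for php-3. In the double mutant the values were 29.6%, 32.9% and 25.4% against 5.97%, 5.88% and 8.07%. Among the 8241 tested genes averaging 10 CPM or more, the median was 16.5% in daf-2 and 12.7% in the double mutant.

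The same libraries were high or low for ceh-13, lin-39 and mab-5. All 3 were highest in daf-2 replicate 1, by 1.36, 1.04 and 0.66 on the log2 scale above the genotype's mean, and lowest in daf-2 replicate 5, at -0.84, -0.56 and -0.48. Within the double mutant all 3 were above the mean in replicates 1 and 2 (0.25 to 0.61) and below it in replicates 3 and 4 (-0.59 to -0.32). In double mutant replicate 5 they lay 0.02 to 0.08 above the mean. The posterior genes egl-5, nob-1 and php-3 stayed within -0.20 to 0.24 in all 10 libraries. Summed pharynx markers were also highest in daf-2 replicate 1, at 332 CPM, and stood at 187, 219, 218 and 185 CPM in replicates 2 to 5. Their values in double mutant replicates 1 to 5 were 311, 274, 244, 242 and 287 CPM. In this list of 9 genes, 1 was called higher and 1 lower between the genotypes, beside 17.9% and 18.3% of all tested genes. Summed intestine markers were highest in daf-2 replicate 1 as well, at 1388 CPM against 1078 to 1322 CPM in the others. In the double mutant they were highest in replicates 1 and 2 (993.5 and 1025 CPM), as were body wall muscle markers (7061 and 7358 CPM). The daf-2 sums of muscle, germline, neuron, hypodermis and seam, and dauer markers were highest in libraries other than replicate 1. Over all genes, some libraries of a genotype were closer to each other than the rest. The chi-square per degree of freedom was 5.55 for double mutant replicates 1 and 2 and 6.58 for replicates 3 and 4. It was 3.83 for daf-2 replicates 4 and 5, and 15.99 or more for every other pair within a genotype. The part of this likeness, or of any tissue, in the pattern of ceh-13, lin-39 and mab-5 was not tested.

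**Figure D4:**
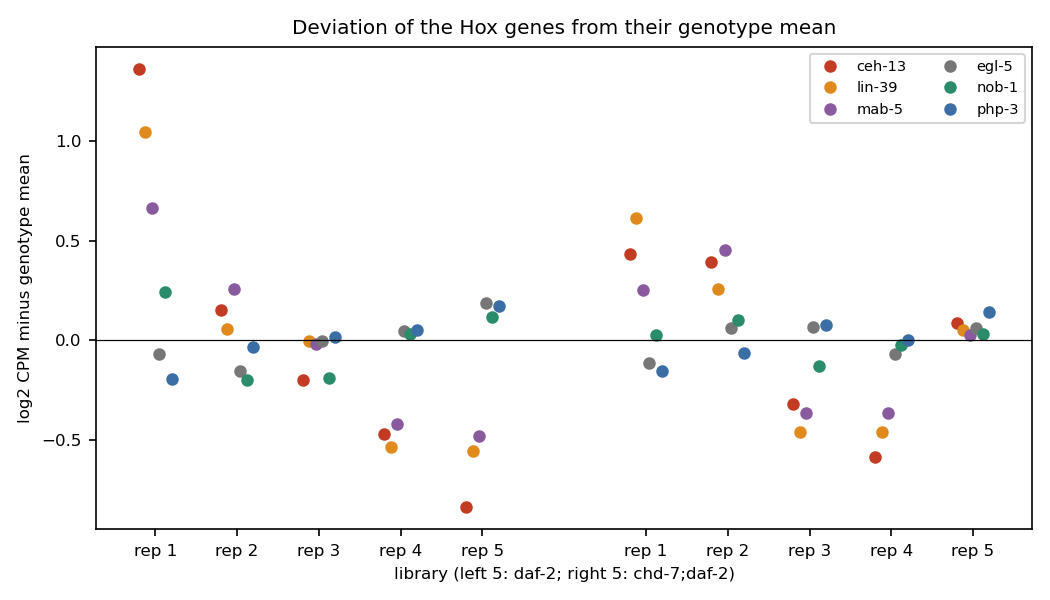
Deviation of log2 CPM from the mean of the gene's genotype (y axis) for the 6 Hox genes in each library (x axis, daf-2 left and the double mutant right). The red, orange and purple points (ceh-13, lin-39 and mab-5) reach from -0.84 to 1.36, while the other 3 genes stay between -0.20 and 0.24.

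The PBC cofactor genes went in different directions. The main Hox cofactor gene ceh-20, on chromosome III from 6979884 to 6981785, rose slightly. It was read at 98.0, 80.1, 79.6, 85.5 and 94.8 CPM in daf-2 and at 105, 118, 111, 103 and 105 CPM in the double mutant, without overlap. The log2 fold change was 0.31 ± 0.09 (adjusted p = 0.0242). Of its 1279 exonic bases, 134 overlap a non-coding gene on the other strand. This rise lost its call without double mutant replicate 2 or 3 or daf-2 replicate 2, 3 or 4 (adjusted p = 0.0509 to 0.0604) and without the 3 libraries that stood apart (0.150).

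Another PBC gene, ceh-60, fell by 1.23 on the log2 scale (SE 0.29, adjusted p = 0.00709). CEH-60 acts in the intestine, where it promotes yolk protein gene expression together with the Meis-class homeodomain protein UNC-62. It lies on chromosome X from 6522596 to 6530146, and 72 of its 1331 exonic bases overlap ets-4 on the other strand. In daf-2 it was read at 5.63, 6.09, 3.85, 3.32 and 2.88 CPM and in the double mutant at 2.545, 1.999, 1.02, 1.85 and 1.83 CPM. The groups were separate but close, with the lowest daf-2 library just over the highest double mutant library. In the intestinal marker list 5 of 10 genes were called lower and 2 higher, beside 18.3% and 17.9% of all tested genes. The sum of the list was 1078 to 1388 CPM in daf-2 and 908 to 1025 CPM in the double mutant. The unc-62 gene itself was not called (-0.10 ± 0.13, adjusted p = 0.564). The summed vit genes, which CEH-60 acts on, lay between 2.02 and 17.4 CPM in the double mutant. In daf-2 they lay between 3.67 and 107 CPM. The part of intestinal RNA in the fall of ceh-60, and any link of that fall to the vit levels, was not tested. Without the 3 libraries the fall was 1.10 on the log2 scale (adjusted p = 0.0498). The last PBC gene, ceh-40, was near the limit of detection, as given above.

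In the NK and related class 4 of 7 tested genes rose and none fell, where 17.9% of all tested genes were called higher and 18.3% lower. The class as counted holds only genes with a ceh name. Of its 18 members 9 were under the filter and 2 had no read, so the count covers a part of the class. The largest rise was in ceh-19, a gene of the MC pharyngeal motor neurons, on chromosome IV from 7953500 to 7955949. Its levels were 1.62, 1.08, 1.74, 1.04 and 1.31 CPM in daf-2 and 4.65, 3.64, 3.16, 3.70 and 2.95 CPM in the double mutant, far from overlap. The log2 fold change was 1.41 ± 0.23 (adjusted p = 0.000923), on 74 and 206 reads over the 5 libraries of each genotype. Of its 917 exonic bases, 49 overlap mcm-3AP on the other strand.

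The BarH-class gene ceh-31, on chromosome X from 3068648 to 3070422, was at 3.41, 2.55, 3.11, 3.04 and 4.06 CPM in daf-2 and at 5.18, 8.27, 6.13, 5.45 and 5.96 CPM in the double mutant. All double mutant libraries lay above all daf-2 libraries, and the log2 fold change was 0.94 ± 0.19 (adjusted p = 0.00358). Its close relative ceh-30, which protects the male-specific CEM neurons from death, lies 3096 bases away and was too low to be tested, at 0.810 ± 0.283 and 0.954 ± 0.153 CPM.

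The gene ceh-62, on chromosome II from 10805737 to 10808611, was at 6.66, 4.12, 6.41, 7.05 and 7.72 CPM in daf-2 and 11.7, 8.73, 14.2, 12.9 and 11.2 CPM in the double mutant. It rose by 0.88 ± 0.19 on the log2 scale (adjusted p = 0.00473), without overlap. A smaller rise was called for ceh-63, on chromosome X from 3672274 to 3674058, with 2.13, 3.63, 3.39, 3.53 and 2.62 CPM in daf-2 and 3.69, 5.998, 4.83, 5.12 and 4.98 CPM in the double mutant. The highest daf-2 library, replicate 2, almost reached the lowest of the double mutant, replicate 1. Its log2 fold change was 0.68 ± 0.21 (adjusted p = 0.0249), and the call was lost without double mutant replicate 2 (0.0641), without daf-2 replicate 5 (0.0553) and without the 3 libraries that stood apart (0.0558). It shares 18 of 933 exonic bases with tag-52 on the same strand.

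The other tested genes of the NK class were not called. The Distal-less counterpart ceh-43 was at 12.9 ± 1.46 CPM in daf-2 and, in the double mutant, at 11.7 ± 2.12 CPM (log2 fold change -0.14 ± 0.15), ceh-9 had a log2 fold change of 0.43 ± 0.29, and ceh-1 of 0.05 ± 0.26.

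**Figure D5:**
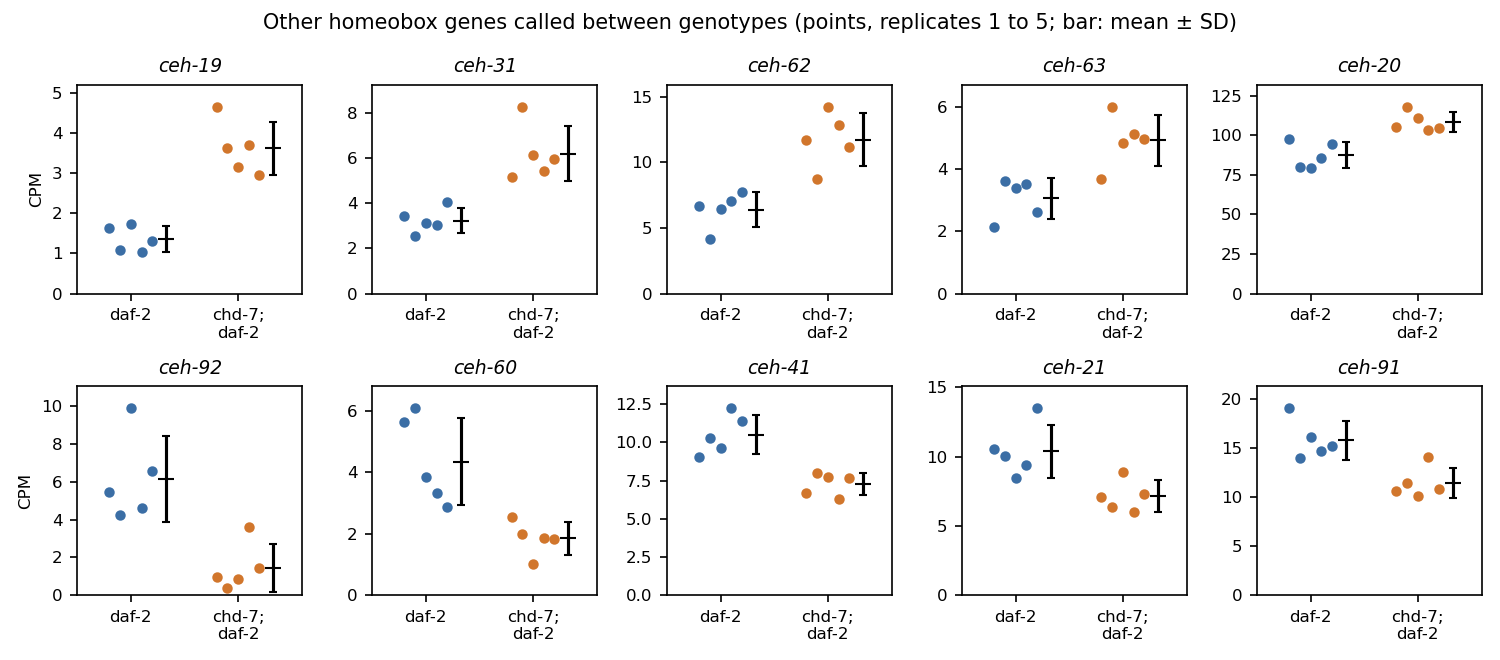
CPM (y axis, from 0) of the 10 called homeobox genes other than nob-1 in the 5 daf-2 (blue) and 5 double mutant (orange) libraries, with the mean and SD in black. The upper row holds the 5 genes that rose and the lower row 5 that fell, and the genotypes overlap for ceh-21 and ceh-91.

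The largest fall was in ceh-92, on chromosome III from 11581600 to 11589133, by 2.11 on the log2 scale (SE 0.47, adjusted p = 0.00588). In daf-2 it was read at 5.46, 4.22, 9.89, 4.63 and 6.55 CPM and in the double mutant at 0.965, 0.364, 0.836, 3.60 and 1.44 CPM. The groups did not overlap, but double mutant replicate 4 stood far above the others of its genotype. The germline marker sum had the same order at its ends, with its highest daf-2 value in replicate 3 (891 CPM) and its highest double mutant value in replicate 4 (418 CPM, against 89.6 to 133 in the other 4). Without that library the fall of ceh-92 was 2.72 on the log2 scale (adjusted p = 4.43e-04), and without the 3 libraries that stood apart it was 2.57 (0.00192). The part of germline RNA in this result was not tested.

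On the same chromosome ceh-91, 27612 bases away with 5 genes between them, fell by 0.47 on the log2 scale (SE 0.13, adjusted p = 0.0175). It was at 19.03, 13.9, 16.1, 14.7 and 15.2 CPM in daf-2 and at 10.6, 11.5, 10.1, 14.1 and 10.8 CPM in the double mutant. The groups overlapped only because double mutant replicate 4 lay just above daf-2 replicate 2. That library was also the highest of its genotype in the germline marker sum, whose part in this result was not tested, and without it the fall was 0.55 on the log2 scale.

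The 3 ONECUT genes ceh-41, ceh-21 and ceh-39 form a cluster on chromosome X between 1846608 and 1856172, all on the minus strand, and all 3 had lower mean levels in the double mutant. The middle gene, ceh-21, lies 103 bases from ceh-41 and 1137 bases from ceh-39. CEH-39 is known as an X signal element, one of the factors by which the embryo counts its X chromosomes. Of the cluster, ceh-41 was at 9.05, 10.3, 9.61, 12.2 and 11.4 CPM in daf-2 and 6.67, 7.998, 7.71, 6.32 and 7.66 CPM in the double mutant, without overlap. It fell by 0.53 on the log2 scale (SE 0.14, adjusted p = 0.0125).

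The middle gene ceh-21 was at 10.6, 10.0, 8.42, 9.40 and 13.5 CPM in daf-2 and 7.11, 6.36, 8.92, 5.99 and 7.33 CPM in the double mutant. The genotypes overlapped through double mutant replicate 3, which lay above daf-2 replicate 3. It also fell by 0.53 (SE 0.17, adjusted p = 0.0275), a call lost without double mutant replicate 1, 2 or 4 or daf-2 replicate 5 (adjusted p = 0.0585 to 0.0666). The third gene, ceh-39, had 7.95 ± 1.90 CPM in daf-2 and 5.74 ± 1.55 CPM in the double mutant and was not called (-0.47 ± 0.22, adjusted p = 0.11), except without double mutant replicate 3 (0.0414). The genes lie close together on 1 strand, and whether reads run from one into the next was not tested.

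The CUT and ONECUT genes are known for a shared role in pan-neuronal gene expression. Of 6 tested genes of this class 2 were called (33.3%), beside 36.2% of all tested genes, and none outside the cluster. The levels were 74.8 ± 13.4 and 86.6 ± 5.18 CPM for ceh-38 (log2 fold change 0.21 ± 0.12), 102 ± 11.3 and 92.8 ± 6.55 CPM for ceh-44 (-0.14 ± 0.10) and 13.3 ± 2.65 and 13.7 ± 1.03 CPM for ceh-48 (0.04 ± 0.15), in daf-2 and the double mutant respectively. Among 14 tested neuron markers 3 were called higher and none lower, where 17.9% of all tested genes were called higher and 18.3% lower.

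None of the POU, LIM, sine oculis and paired-like genes tested was called, where 36.2% of all tested genes were. The POU gene ceh-18, which acts in the gonadal sheath to hold oocytes in meiotic arrest, was at 65.6 ± 5.45 CPM in daf-2 and, in the double mutant, at 62.8 ± 9.22 CPM, with a log2 fold change of -0.06 ± 0.11 and a 95% interval from -0.31 to 0.18. The excretory cell gene ceh-6 had a log2 fold change of 0.12 ± 0.17, and ceh-14, which acts in the AFD thermosensory neurons, one of 0.06 ± 0.18 around a mean of 27.7 ± 7.76 CPM in daf-2. The Six3/6 counterpart ceh-32, a head gene, came closest to a call among these. Its levels were 6.66, 3.93, 6.499, 6.15 and 3.01 CPM in daf-2 and 7.99, 7.54, 7.71, 6.10 and 10.8 CPM in the double mutant, with double mutant replicate 4 below 3 daf-2 libraries. The log2 fold change was 0.60 ± 0.24 (adjusted p = 0.0676), and a call was made with DESeq2 (0.0433) and limma-voom (0.0498). The pharyngeal neuron gene ceh-34 (-0.24 ± 0.41) and the Otx-class gene ceh-37 (0.23 ± 0.27) had wide 95% intervals, -1.14 to 0.65 and -0.36 to 0.82, and were not called, although ceh-37 was called without daf-2 replicate 1 (0.56, adjusted p = 0.0432), its highest library. Of the genes put in no class here, 2 of 11 tested fell (ceh-91 and ceh-92) and none rose, which is 18.2% called beside 36.2% of all tested genes. In this group ceh-100, ceh-88, ceh-58, ceh-93, ceh-79, ceh-57, ceh-76, ceh-83 and ceh-89 were not called, with log2 fold changes from -0.59 to 0.26.

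Homeobox genes with other names were counted as well. Of 33 such genes listed, 25 were tested, 7 rose and 2 fell, so 36% were called beside 36.2% of all tested genes. Their median log2 fold change was 0.41, beside -0.03 over all tested genes. The largest rise was in hmbx-1, from 2.78 ± 0.858 to 7.38 ± 0.903 CPM (log2 fold change 1.405 ± 0.22, adjusted p = 0.000710), with every double mutant library (5.96 to 8.36 CPM) above every daf-2 library (2.004 to 3.83 CPM). The neuronal ZEB-class gene zag-1 rose by 0.54 ± 0.13, the Prospero counterpart pros-1 by 0.41 ± 0.10, and the Islet counterpart lim-7, a gonadal sheath gene, by 0.49 ± 0.12 (adjusted p = 0.00997, 0.00871 and 0.00848). The lim-7 call was lost without the 3 libraries that stood apart (0.0528). The LIM gene lim-6 fell by 0.95 on the log2 scale (SE 0.21, adjusted p = 0.00495) and the Caudal counterpart pal-1 by 0.80 (SE 0.16, adjusted p = 0.00307), from 23.5 ± 4.49 to 13.5 ± 2.41 CPM. As maternal pal-1 RNA is made in the germline, the germline marker values given above belong beside its fall, and their part in it was not tested.

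Known regulators of Hox genes were counted too. Of 8 Polycomb-type repressor genes, 1 fell and none rose (12.5% called), and of 6 Trithorax-type genes 1 rose and 1 fell (33.3%), beside 36.2% of all tested genes. The Polycomb-type gene was mes-2, the Enhancer of zeste counterpart (-0.36 ± 0.11, adjusted p = 0.0266), and its call was lost without double mutant replicate 1 or 2 or daf-2 replicate 4 or 5 (adjusted p = 0.0515 to 0.0688). The Hox repressor gene sop-2 was at 85.4 ± 12.9 and 83.5 ± 10.3 CPM. The Trithorax-type gene lin-59, the Ash1 counterpart, rose by 0.40 ± 0.09 (191 ± 11.4 to 253 ± 7.65 CPM, adjusted p = 0.00473), without overlap. Another, wdr-5.1, fell by 0.37 (SE 0.12, adjusted p = 0.0338), a call lost without double mutant replicate 1 or 2 or daf-2 replicate 3 or 5 (0.0671 to 0.0838), without the 3 libraries (0.0823) and with total-count scaling (0.0604).

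In the Wnt pathway, which acts on lin-39 and mab-5 through the beta-catenin BAR-1, 3 of 11 genes rose and 1 fell, so 36.4% were called, a share near the 36.2% of all tested genes. The Axin counterpart pry-1 rose by 0.53 ± 0.14 (adjusted p = 0.0123), the Frizzled gene lin-17 by 0.41 ± 0.13 (0.0303) and bar-1 by 0.39 ± 0.14 (0.0421). Of the 1973 exonic bases of pry-1, 180 overlap C37A5.11 on the other strand. The lin-17 call was lost without double mutant replicate 1, 2 or 3 or daf-2 replicate 2, 3 or 4 (0.0578 to 0.0718), and without the 3 libraries (0.158). The bar-1 call was lost without any 1 of these 6 libraries or daf-2 replicate 5 (0.0706 to 0.106), without the 3 libraries (0.135) and with upper-quartile scaling (0.0531). The ligand gene mom-2 fell by 1.74 on the log2 scale (SE 0.30, adjusted p = 0.00126). In the double mutant it was highest in replicate 4, at 11.8 CPM against 3.53 to 6.09 in the other 4, the library in which the germline markers were highest as well. The part of germline RNA in this fall was not tested. The ligand gene egl-20, which switches on mab-5 in the QL neuroblast, was not called (0.21 ± 0.19, adjusted p = 0.403).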

How the data were processed

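The authors deposited a table of raw read counts, whole numbers per gene, for each library. HTSeq 0.9.1, STAR 2.5.4a, DESeq2 1.20.0 and FastQC 0.11.5 are named by the submitters' processing notes. The sources used here give no genome build, annotation or strand setting, so reads of overlapping genes on opposite strands may not be told apart. HTSeq's tallies were kept out of all totals (reads in no gene, 2.94% to 5.7% per library, ambiguous reads 2.07% to 2.3%, reads with several alignments 5.53% to 11.2%).

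The analysis used edgeR 4.0.16 in R 4.3.3 on all 20222 genes: filterByExpr (minimum count 10, minimum total 15), TMM, a robust quasi-likelihood F test of genotype with no covariate, and Benjamini-Hochberg adjustment over 12499 genes with a threshold of 0.05. The SE is the log2 fold change divided by the square root of F. The members and lists were chosen with earlier results of these data known. Genes named with full values were the Hox and PBC genes, the called members, the 5 highest per kilobase, those detected in 1 genotype, and up to 4 called genes of lowest p per direction of each other list. Other genes given with values, among them ceh-32, were chosen after their values were seen. Positions and exon lengths came from Ensembl 115 (WBcel235), matched by name for 67 of 68 members. The script was checked on simulated data. Alternatives were DESeq2 1.42.0, limma-voom (limma 3.58.1), other scalings and filters, a replicate block and left-out libraries.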

Additional observations from a re-analysis of the deposited data

Results flagged for a closer look

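Among the member genes given with full values, 46 groups of 5 libraries were screened for a library far from the rest. Of these, 3 were singled out. Chance alone singles out about 1 group in 20, so 3 of 46 is near the number chance gives. In daf-2 replicate 1, ceh-13 was at 24.2 CPM while the other 4 daf-2 libraries lay between 5.105 and 10.3 CPM. The neighbouring gene lin-39 was at 32.2 CPM in the same library, against 10.47 to 16.1 CPM in the others. In double mutant replicate 4, ceh-49 was at 0.327 CPM, against 0 to 0.0929 CPM in the others, which is 3 reads against 0 or 1.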

How the results depend on the processing

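The count of called members stayed between 11 and 13 under DESeq2, limma-voom, 3 other scalings and both other filters. Leaving out 1 library at a time gave 7 to 12 called members, 3 to 6 of them higher and 4 to 6 lower. Without the 3 libraries that stood apart, 9 members were called, 3 higher and 6 lower. All 11 calls were shared under DESeq2, limma-voom and the scalings, and 10 of 11 without a filter. The calls of ceh-19, ceh-31, ceh-62, ceh-92, ceh-60, ceh-41 and ceh-91 held under all 19 alternatives run. Other homeobox genes called numbered 6 to 11. Members detected numbered 58 in daf-2 and 56 in the double mutant at 1 read, and 40 and 38 at 10 reads.

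With the replicate number as a block 12 members were called, the 11 and php-3. Deviations of same-numbered libraries from their genotype means correlated at 0.30, 0.33, -0.19, -0.18 and 0.24 across genes for numbers 1 to 5, and the double mutant libraries of numbers 1 and 2, but not 3, 4 and 5, correlated best with their own number. The evidence is mixed, and as not every pair deviated together the numbers were not taken to pair the libraries.

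The sign of 4 Hox genes near 0 turned under some alternatives, none of them called. The log2 fold change of mab-5 was 0.049 with limma-voom, 0.078 without the 3 libraries and between -0.17 and 0.16 leaving out 1 library. Without 1 library ceh-13 lay between -0.036 and 0.66, lin-39 between -0.016 and 0.53, and egl-5 between -0.087 and 0.001. The cause was not tested. The mean levels of the 30 untested members lay under 1 CPM in both genotypes, and the part of depth in this was not tested.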
